A study of Mus musculus with 16 samples.

Results

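The genes described here are those whose transcript level was above every other library in all 4 libraries of mice that had both pressure overload and THZ1. They were chosen by measured values: a gene reaching 10 normalized counts in 4 or more of the 16 libraries was taken when its lowest TAC-THZ1 library was above the highest of the other 12 libraries. Of 22372 genes in the table, 13331 had the minimum count and 135 had this pattern. Another 30 of these were set aside by symbol, among them 17 genes of the mitochondrial ribosome and 6 of respiratory complex I, which left 105 members. Because the choice used every TAC-THZ1 value, differences between TAC-THZ1 and the other groups are given as descriptions, without a test.

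All mice were male C57BL/6J, aged 10 to 12 weeks when the experiment began, and RNA came from a piece of the heart ventricles. Transverse aortic constriction (TAC) ties a suture around the aortic arch so that the left ventricle pumps against a higher pressure, and sham mice had the operation without the suture. THZ1, a covalent inhibitor of the transcription kinases CDK7, CDK12 and CDK13, was injected into the peritoneum at 10 mg/kg, 2 times daily, beginning on postoperative day 1 and ending on day 60, and vehicle mice received the solvent. Sham mice with vehicle (Sham-Veh) or THZ1 (Sham-THZ1) and TAC mice with vehicle (TAC-Veh) or THZ1 (TAC-THZ1) gave 4 libraries a group. The libraries held 21.4 to 35.8 M (mega) reads in protein-coding genes, and mitochondrially encoded transcripts took 33.2 to 44.7% of them. In pieces of tissue, fewer cells of a type and less RNA per cell cannot be told apart. The ventricular light chains Myl2 and Myl3 had Sham-Veh means of 221125 and 109674 normalized counts, whereas the atrial light chain Myl7 had a mean of 0.27, as in ventricle.

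Several of the members described here encode mitochondrial proteins. Nearly all mitochondrial proteins are made in the cytosol and pass through translocases of the outer and inner membranes (the TOM, SAM and TIM complexes), while prohibitins and the MICOS complex organise the folded inner membrane that carries the respiratory chain. Heart muscle depends on this membrane for most of its ATP, and pressure overload is known to lower transcripts of oxidative metabolism. CDK7, CDK12 and CDK13 phosphorylate RNA polymerase II during initiation and elongation, so their inhibition is known to act on transcription broadly.

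The 105 members were higher in TAC-THZ1 by small amounts. Their TAC-THZ1 mean was a median of 16.4% above the next-highest group (range 4.79 to 78.1%), which is 0.22 on the log2(normalized count + 1) scale. Only 35 members were at least 20% above the next-highest group, and 16 were less than 10% above it. The lowest TAC-THZ1 library was a median of 1.02 times the highest other library, and the largest such ratio was 1.17, for Timm23. Genes highest only in TAC-THZ1 made up 1.01% of the tested genes, against 1.05% highest only in Sham-Veh, 1.97% in Sham-THZ1 and 6.47% in TAC-Veh, so the count of genes with the pattern was no larger than the count for the vehicle-treated sham group. The highest library outside TAC-THZ1 was a TAC-Veh library for 60 members, and TAC-Veh 1 or TAC-Veh 3 for 23 and 31 of them. The members were abundant, with a median TAC-THZ1 mean of 1028 normalized counts against 392 for all tested genes.

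**Figure D1:**
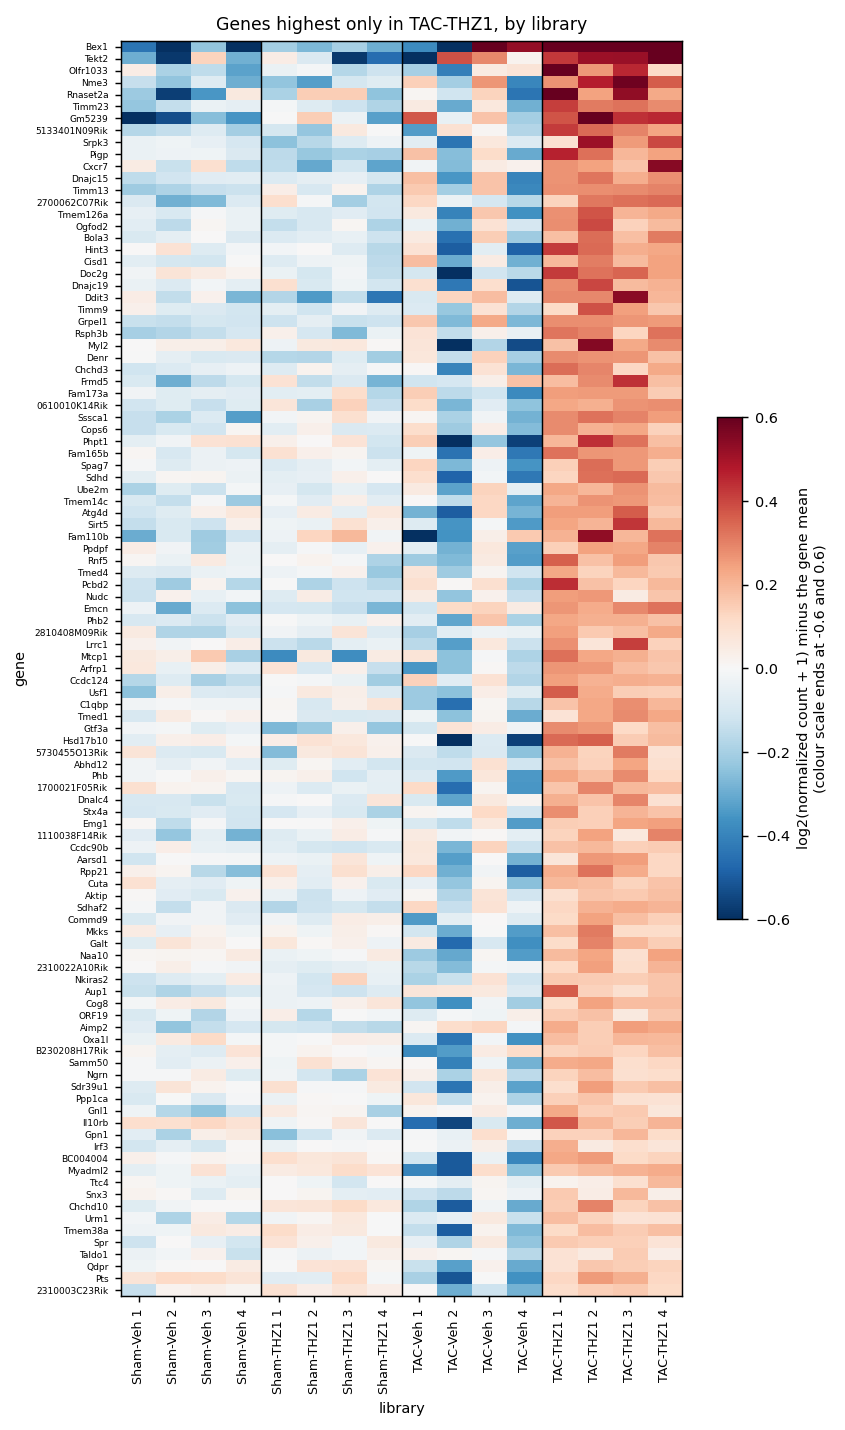
Each row is 1 of the 105 members and each column a library, with replicates 1 to 4 of the 4 groups from left to right. Colour is log2(normalized count + 1) minus the gene's mean over the 16 libraries, from blue (lower) to red (higher). The 4 TAC-THZ1 columns are red by the choice of genes, and TAC-Veh 2 and 4 are the bluest columns.

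The members had short transcripts, a property the choice did not use. Their longest annotated transcript had a median of 1452 bases, against 3049 bases for all tested genes, and 57 members (54.3%) had transcripts of up to 1500 bases, against 1995 of the 13331 tested genes (14.97%). Short transcripts as a whole moved with the groups. The median deviation of transcripts of up to 1500 bases less that of transcripts of at least 3000 bases was 0.18 to 0.28 on the log2 scale in the 4 TAC-THZ1 libraries and -0.17 to -0.11 in the 8 sham libraries. In TAC-Veh it was 0.29 and 0.18 in replicates 1 and 3 and -0.002 and -0.21 in replicates 2 and 4, so 2 TAC-Veh libraries lay with TAC-THZ1 and 2 did not. When each library's trend with transcript length was removed by a smooth curve, an alternative added once the values were known, 58 genes had the pattern and 30 of the 105 members were among them. Removal in 20 length bins left 54 genes and 26 of the members. Under both adjustments 25 members kept the pattern, including Timm23, Srpk3, Cxcr7, Bola3, Dnajc19, Grpel1, Denr, Sssca1, Emcn and Usf1.

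**Figure D2:**
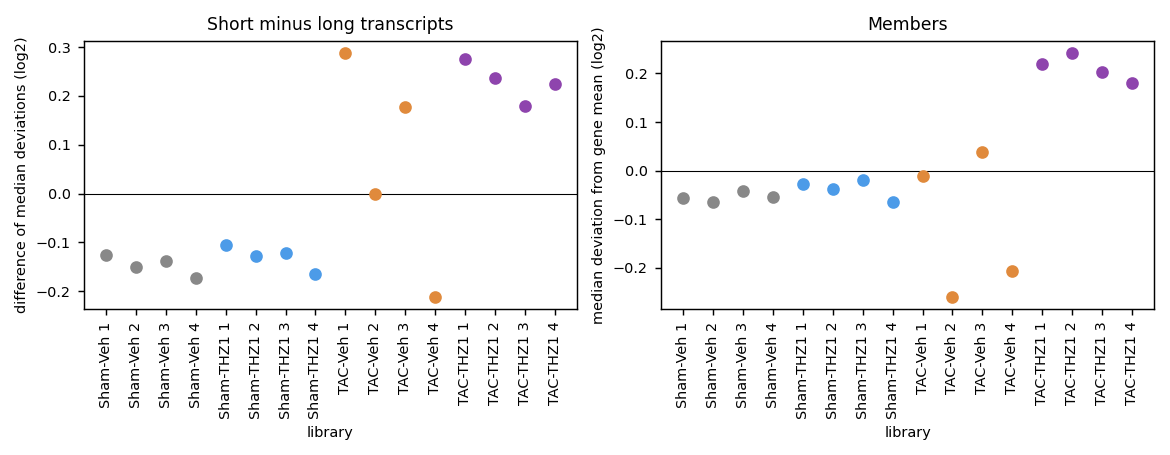
Left, the median deviation of short transcripts less that of long transcripts in each library. Right, the median deviation of the 105 members in each library, both on the log2 scale and coloured by group. Short transcripts were high in TAC-Veh 1 and 3 as in the 4 TAC-THZ1 libraries, and the members' medians of 0.18 to 0.24 in TAC-THZ1 lie above all others by the choice of genes.

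The scale of the values also mattered. When the recovered reads were divided by each library's total and expressed as CPM (counts per mega reads), 20 genes had the pattern and 12 of the 105 members were among them. This scaling moved the median of all tested genes by -0.16 on the log2 scale between TAC-THZ1 and TAC-Veh, against 0.02 with the deposited values. The group mean was highest in TAC-THZ1 for 97 of the 105 members in CPM, against 10.9% of all tested genes. It was so for 77 and 74 members after the curve and the bin adjustment for length, against 18.8 and 18.5% of all. The members were chosen for high TAC-THZ1 values, so these counts follow in part from the choice.

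The widest gap belonged to a member of the mitochondrial import machinery. Timm23 encodes the channel of the TIM23 translocase of the inner membrane. Normalized counts of Timm23 were 1097, 1169, 1255 and 1242 in Sham-Veh, 1279.8, 1223, 1183 and 1137 in Sham-THZ1, 1340.3, 1044, 1345 and 1056 in TAC-Veh, and 1719, 1600.2, 1614 and 1572 in TAC-THZ1. The TAC-THZ1 libraries lay apart from the other 12, which overlapped one another. Timm13 is a small chaperone that guides membrane proteins between the outer and inner membranes. The level of Timm13 in normalized counts was 632, 643, 666 and 669.8 in Sham-Veh, 753, 685, 744 and 643 in Sham-THZ1, 817, 636, 825 and 559.6 in TAC-Veh, and 887, 889.9, 891 and 902 in TAC-THZ1. Its TAC-THZ1 libraries were close together, whereas TAC-Veh 1 and 3 were high and TAC-Veh 2 and 4 low. Grpel1 is the nucleotide exchange factor of the matrix chaperone that pulls proteins inwards. For Grpel1, the normalized counts were 2169, 2155, 2211 and 2197 in Sham-Veh, 2182, 2296, 2173 and 2185 in Sham-THZ1, 2659, 1984, 2786 and 1978 in TAC-Veh, and 2887, 2889.8, 2864 and 2844 in TAC-THZ1. Here too TAC-Veh divided into 2 higher and 2 lower libraries, and the higher ones reached 2786, against a lowest TAC-THZ1 library of 2844.

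The promoter of Timm23 is shown because this gene had the widest gap. It is the window from 250 bases before to 50 bases after the annotated start (RefSeq, GRCm38.p6, chr14:32201842-32202141, minus strand, written 5′ to 3′), and capitals mark the match to AGGTCA, a short element bound by nuclear receptors.

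Timm23: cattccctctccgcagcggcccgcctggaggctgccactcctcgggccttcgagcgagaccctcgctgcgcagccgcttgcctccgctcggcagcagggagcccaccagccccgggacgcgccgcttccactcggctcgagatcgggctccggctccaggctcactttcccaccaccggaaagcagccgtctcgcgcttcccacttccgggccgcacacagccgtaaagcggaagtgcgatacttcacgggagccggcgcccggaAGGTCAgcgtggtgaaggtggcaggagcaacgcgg

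The other import members were Timm9, a partner chaperone in the intermembrane space, Samm50, the core of the outer membrane assembly complex, Dnajc15 and Dnajc19, J-proteins of the import motor, and Oxa1l, which inserts proteins into the inner membrane from the matrix. Dnajc15 had normalized counts of 1337, 1372, 1416 and 1419 in Sham-Veh, 1403, 1430.3, 1434 and 1382 in Sham-THZ1, 1685, 1165, 1670.3 and 1127 in TAC-Veh, and 1788, 1856, 1729 and 1798 in TAC-THZ1. Normalized counts of Samm50 were 5224, 5026, 5132 and 5362 in Sham-Veh, 5156, 5606, 5368 and 5299 in Sham-THZ1, 5279, 3973, 5155 and 4320.3 in TAC-Veh, and 6138, 6177, 5628 and 5723 in TAC-THZ1. In both genes TAC-Veh 1 and 3 were above TAC-Veh 2 and 4. The level of Dnajc19 in normalized counts was 716, 695, 728 and 708 in Sham-Veh, 788, 691, 724 and 683 in Sham-THZ1, 788, 546, 789.6 and 514 in TAC-Veh, and 893, 971, 839.8 and 852 in TAC-THZ1. For Oxa1l, the normalized counts were 1788, 1907, 1988 and 1819.8 in Sham-Veh, 1821, 1835, 1889.9 and 1881 in Sham-THZ1, 1735, 1361, 1814 and 1427 in TAC-Veh, and 2088, 2036, 2110.0 and 2104 in TAC-THZ1. TAC-Veh 2 and 4 were again the lowest of the 16 libraries for Dnajc19 and for Oxa1l. The mean of Dnajc15 was 26.9% above the next-highest group and that of Samm50 10.4%. A list of import genes was drawn up after the values had been seen. Of its 36 tested genes 8 were members, against 105 of all 13331 tested genes. The highest group mean was in TAC-THZ1 for 31 of 36 (86.1%), among them the 8 members by choice, against 22.9% of all tested genes. The corresponding count was 23 of 36 (63.9%, against 10.9% of all) in CPM and 24 of 36 (66.7%, against 18.8%) after the length curve. Timm23, Dnajc19 and Grpel1 kept the pattern under both length adjustments, and the other 5 did not.

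**Figure D3:**
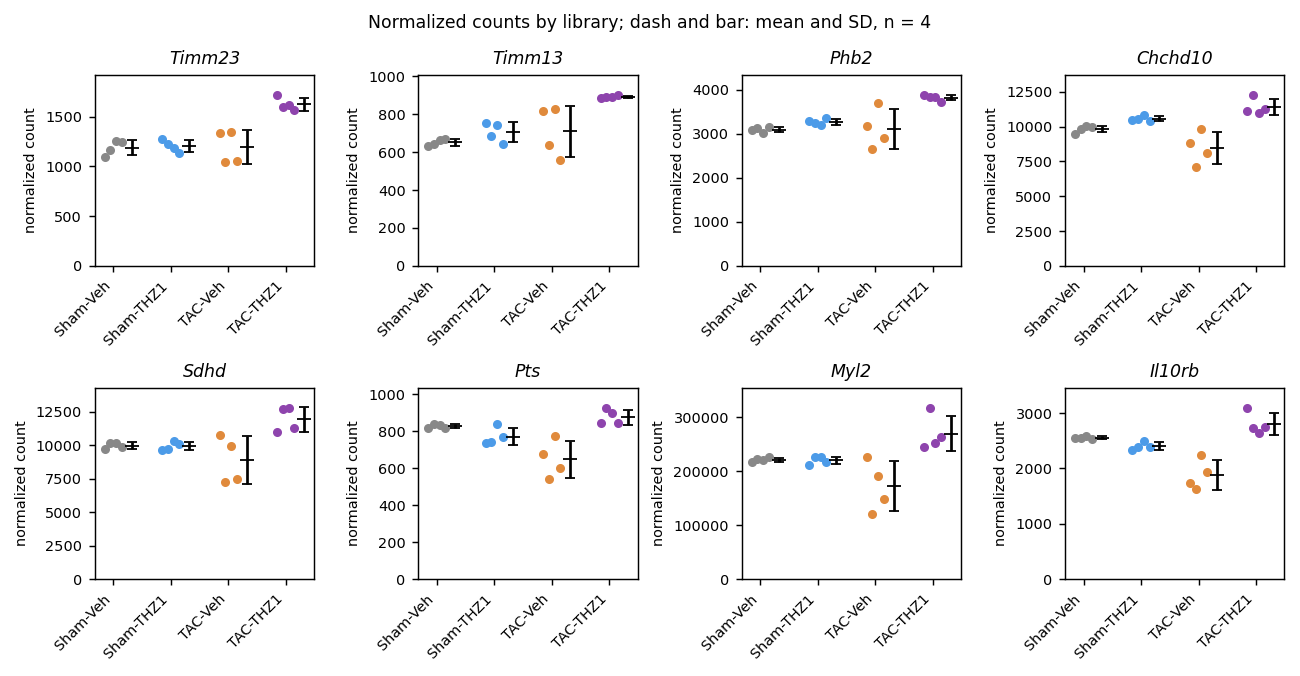
Normalized counts of 8 members, with 1 panel per gene, a linear axis from 0, 1 point per library in replicate order, and a dash and bar for the mean and SD of 4 libraries. In each panel the TAC-THZ1 points lie above all others by the choice of genes, and the TAC-Veh points have the widest spread.

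Members of the inner membrane's scaffold were Phb and Phb2, which form the ring-shaped prohibitin complex, Chchd3, a MICOS subunit, and Chchd10, a small protein of the intermembrane space. Phb2 had normalized counts of 3088, 3121, 3017 and 3148 in Sham-Veh, 3293, 3243, 3199 and 3358 in Sham-THZ1, 3164, 2658, 3705 and 2899.5 in TAC-Veh, and 3877, 3836, 3824 and 3729 in TAC-THZ1. Normalized counts of Chchd10 were 9486, 9829, 10008 and 9980.3 in Sham-Veh, 10501, 10535, 10793 and 10422 in Sham-THZ1, 8797, 7067, 9837 and 8084 in TAC-Veh, and 11086, 12262, 10957 and 11285 in TAC-THZ1. TAC-Veh 2 had the lowest value of both genes, and TAC-Veh 3 was the highest TAC-Veh library. The level of Phb in normalized counts was 1828, 1849.7, 1896 and 1868 in Sham-Veh, 1877, 1891, 1704 and 1783 in Sham-THZ1, 1752, 1462, 1945 and 1459 in TAC-Veh, and 2179, 2098, 2254 and 2012 in TAC-THZ1. For Chchd3, the normalized counts were 7607, 7807, 7993 and 8103 in Sham-Veh, 7832, 8387, 7979 and 8242 in Sham-THZ1, 8326, 6287, 8795 and 6838 in TAC-Veh, and 10432, 10151, 9011 and 9695 in TAC-THZ1. The same pair of libraries, TAC-Veh 2 and 4, had the lowest values of Phb and Chchd3. In a list of 13 tested genes of these complexes, also drawn up after the values had been seen, 9 (69.2%) had their highest mean in TAC-THZ1 with the deposited values, 6 (46.2%) in CPM and 5 (38.5%) after the length curve, against 22.9, 10.9 and 18.8% of all tested genes. The 4 members in this list are among the 9 by the choice of genes. Phb2 lies head to head with another member, Emg1, a methyltransferase of ribosome assembly, with 144 bases between the ends of the 2 genes on chromosome 6 (NCBIM37, Emg1 at 124654399 to 124662196 on the minus strand, Phb2 at 124662340 to 124666968 on the plus strand). The window at the start of Phb2 (RefSeq, GRCm38.p6, chr6:124712039-124712338, plus strand) is shown as the start region of both genes, and its capitals mark 3 GC boxes (GGGCGG on either strand).

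Phb2: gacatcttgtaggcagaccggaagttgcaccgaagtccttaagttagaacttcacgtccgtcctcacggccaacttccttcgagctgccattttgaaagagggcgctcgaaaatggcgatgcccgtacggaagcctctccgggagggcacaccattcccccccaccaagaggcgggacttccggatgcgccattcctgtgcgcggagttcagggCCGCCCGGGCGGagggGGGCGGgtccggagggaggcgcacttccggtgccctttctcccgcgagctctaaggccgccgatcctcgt

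Members of the respiratory chain and its cofactors were Sdhd, a membrane anchor of succinate dehydrogenase, Sdhaf2, which helps attach the flavin to that enzyme, and Bola3 and Cisd1, which handle iron-sulfur clusters. Sdhd had normalized counts of 9673, 10139.9, 10167 and 9823 in Sham-Veh, 9653, 9732, 10276 and 10087 in Sham-THZ1, 10787, 7217, 9951 and 7479.6 in TAC-Veh, and 11006, 12667, 12739 and 11248 in TAC-THZ1. Normalized counts of Bola3 were 2183, 2240.4, 2326 and 2191 in Sham-Veh, 2195, 2222, 2253 and 2133 in Sham-THZ1, 2411, 1703, 2573 and 2007 in TAC-Veh, and 2637, 2936, 2635 and 2883 in TAC-THZ1. Sdhd spanned 7217 to 10787 in TAC-Veh, a wider range than in any other group. The catalytic subunit Sdha was no member, with a TAC-THZ1 mean of 30291 that lay above TAC-Veh (21218) and below Sham-Veh (36891) and Sham-THZ1 (38447). Sdhd was the single member among 18 tested genes of the tricarboxylic acid cycle. Of these, 2 (11.1%) had their highest mean in TAC-THZ1, with Sdhd among them by the choice of genes, against 22.9% of all tested genes.

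Tetrahydrobiopterin is a cofactor of aromatic amino acid hydroxylases and nitric oxide synthases. Of 8 tested genes of its metabolism 4 were members, against 105 of all 13331 tested genes. The 4 were Pts and Spr, which carry out the later steps of tetrahydrobiopterin synthesis, and Qdpr and Pcbd2, which regenerate the cofactor. None of the 4 kept the pattern under either length adjustment. The level of Pts in normalized counts was 818, 841, 836 and 817 in Sham-Veh, 738, 741, 840.1 and 768 in Sham-THZ1, 677, 543, 773 and 601 in TAC-Veh, and 843, 924, 897 and 843 in TAC-THZ1. For Qdpr, the normalized counts were 1035, 1051, 1054 and 1088 in Sham-Veh, 1052, 1116, 1119 and 1059.7 in Sham-THZ1, 959, 839, 1071 and 854 in TAC-Veh, and 1119, 1176, 1167 and 1154 in TAC-THZ1. Pts was lower in all 4 TAC-Veh libraries than in Sham-Veh, whereas for Qdpr TAC-Veh 3 lay within the Sham-Veh range. Spr had normalized counts of 960.0, 1049, 1012 and 969.7 in Sham-Veh, 1108, 1069, 1032 and 1089 in Sham-THZ1, 1012, 922, 1089.8 and 888 in TAC-Veh, and 1166, 1155, 1155 and 1108 in TAC-THZ1. Their gaps were among the narrowest, with lowest TAC-THZ1 libraries 1.002 and 1.0001 times the highest other library for Pts and Qdpr. Gch1, which makes the first committed step, was no member, with a TAC-THZ1 mean of 174, a TAC-Veh mean of 186, and 153 and 171 with vehicle and THZ1 in sham. The list of 8 was drawn up after the values had been seen. Its genes with the highest mean in TAC-THZ1 numbered 5 with the deposited values (62.5%, against 22.9% of all tested genes). The 4 members are among these 5 by the choice of genes. After the length curve 1 gene had its highest mean there (12.5%, against 18.8%). The window at the start of Pts (RefSeq, GRCm38.p6, chr9:50528607-50528906, minus strand) is shown because Pts also fell with TAC under vehicle, and its capitals mark a GC box and a match to AGGTCA read on the other strand.

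Pts: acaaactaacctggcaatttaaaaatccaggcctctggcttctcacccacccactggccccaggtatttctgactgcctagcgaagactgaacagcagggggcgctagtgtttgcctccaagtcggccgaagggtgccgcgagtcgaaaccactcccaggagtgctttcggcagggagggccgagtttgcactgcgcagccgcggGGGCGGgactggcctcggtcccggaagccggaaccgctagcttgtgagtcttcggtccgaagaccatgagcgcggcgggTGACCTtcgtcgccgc

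Muscle genes among the members included the most abundant of all, Myl2, the regulatory light chain of ventricular myosin. Normalized counts of Myl2 were 216224, 221537, 221479 and 225262 in Sham-Veh, 211161, 225201, 225518 and 216956 in Sham-THZ1, 226885, 121046, 191440.1 and 148996 in TAC-Veh, and 244174, 316186, 252383 and 262638 in TAC-THZ1. The lowest TAC-THZ1 library was 1.08 times the highest other one, which was TAC-Veh 1, and TAC-Veh 2 had the lowest value. Srpk3 is a muscle kinase of splicing factors and Tmem38a a potassium channel of the sarcoplasmic reticulum. Doc2g, a C2-domain protein, is given here for its wide gap. The level of Srpk3 in normalized counts was 609.9, 617, 607 and 585 in Sham-Veh, 528, 558, 596 and 614 in Sham-THZ1, 601, 463, 656 and 593 in TAC-Veh, and 668, 897, 749 and 827 in TAC-THZ1. For Doc2g, the normalized counts were 4578, 4911, 4812 and 4724 in Sham-Veh, 4526, 4319, 4596 and 4203 in Sham-THZ1, 4329, 2736, 4303 and 4158 in TAC-Veh, and 6223, 5824, 5924 and 5498 in TAC-THZ1. In both genes TAC-Veh 2 was the lowest library. Tmem38a had normalized counts of 9683, 9693, 10278 and 10168 in Sham-Veh, 10656, 10167, 10282 and 9860.4 in Sham-THZ1, 8949, 6999, 10003 and 8222 in TAC-Veh, and 10681, 11231, 10962 and 11181 in TAC-THZ1. Srpk3 was 29.9% and Doc2g 23.4% above the next-highest group. Doc2g shares 2496 bases with Nudt8 on the same strand, so reads in the overlap cannot be assigned to either gene with certainty. Of 15 cardiomyocyte markers, Myl2 was the single member. Their highest mean was in TAC-THZ1 for 7 with the deposited values (46.7%, against 22.9% of all tested genes), 5 in CPM (33.3%, against 10.9%) and 3 after the length curve (20%, against 18.8%). Myl2 is among the 7 by the choice of genes. The start of Myl2 (RefSeq, GRCm38.p6, chr5:122092474-122092773, plus strand) is shown as that of the most abundant member, and none of the 10 motifs searched was found in it.

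Myl2: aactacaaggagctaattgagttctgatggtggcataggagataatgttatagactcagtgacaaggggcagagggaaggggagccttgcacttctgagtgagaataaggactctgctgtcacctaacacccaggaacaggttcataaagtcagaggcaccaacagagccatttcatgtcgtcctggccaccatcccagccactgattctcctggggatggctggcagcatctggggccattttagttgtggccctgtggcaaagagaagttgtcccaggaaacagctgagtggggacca

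Members at the cell surface included Cxcr7, an atypical receptor that takes up the chemokine CXCL12, Il10rb, a shared chain of the receptors for interleukin 10 and related cytokines, and Emcn, a sialomucin of capillary and venous endothelium. Normalized counts of Cxcr7 were 2073, 1822, 2135 and 1803 in Sham-Veh, 1799.9, 1617, 1854 and 1607 in Sham-THZ1, 1974, 1672, 2069 and 2035 in TAC-Veh, and 2413, 2367, 2256 and 2923 in TAC-THZ1. The level of Il10rb in normalized counts was 2547, 2546, 2589 and 2524 in Sham-Veh, 2338, 2389, 2502 and 2383 in Sham-THZ1, 1732, 1626, 2235 and 1944 in TAC-Veh, and 3085, 2728, 2638 and 2744 in TAC-THZ1. For Emcn, the normalized counts were 1302, 1079.7, 1255 and 1121 in Sham-Veh, 1240.5, 1236, 1207 and 1100.2 in Sham-THZ1, 1233, 1440.1, 1460.3 and 1378 in TAC-Veh, and 1599, 1554, 1623 and 1666 in TAC-THZ1. The next-highest group was Sham-Veh for Cxcr7 and Il10rb and TAC-Veh for Emcn. Emcn was the single member among 14 endothelial markers. Apart from Emcn, which is so by the choice of genes, none had its highest mean in TAC-THZ1, against 22.9% of all tested genes. Ddit3 encodes CHOP, a transcription factor of the integrated stress response. Ddit3 had normalized counts of 404, 354, 399.6 and 324 in Sham-Veh, 347, 309, 354 and 289.7 in Sham-THZ1, 368, 429, 446 and 371 in TAC-Veh, and 479, 479, 571 and 450.3 in TAC-THZ1. It was the single member among 15 tested genes of that response. No other of these 15 had its highest mean in TAC-THZ1, against 22.9% of all tested genes with their highest mean there. Olfr1033 carries an olfactory receptor symbol, and its TAC-THZ1 mean of 292 normalized counts was 37.9% above that of Sham-THZ1.

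Hsd17b10, a mitochondrial dehydrogenase, Naa10, the catalytic subunit of an N-terminal acetyltransferase, and Sssca1 were further members with moderate levels. Normalized counts of Hsd17b10 were 2076, 2213, 2229.8 and 2151 in Sham-Veh, 2230.4, 2299, 2261 and 2208 in Sham-THZ1, 2166, 1417, 2047 and 1470.2 in TAC-Veh, and 2747, 2780.3, 2406 and 2470.1 in TAC-THZ1. The level of Naa10 in normalized counts was 578, 579.9, 578 and 594 in Sham-Veh, 557, 563, 570.3 and 595 in Sham-THZ1, 493, 463, 578 and 453 in TAC-Veh, and 653, 676, 612 and 677 in TAC-THZ1. For Sssca1, the normalized counts were 191, 184, 198 and 167 in Sham-Veh, 208, 213, 224 and 207 in Sham-THZ1, 212, 184, 207 and 172 in TAC-Veh, and 256, 264, 258 and 250.4 in TAC-THZ1. TAC-Veh 2 and 4 had the lowest values of Hsd17b10, and Sham-THZ1 was the next-highest group for Hsd17b10 and Sssca1. Gm5239, on chromosome 18, is a predicted gene. Gm5239 had normalized counts of 30.8, 38.5, 46.9 and 43.7 in Sham-Veh, 56.1, 62.2, 54.8 and 44.6 in Sham-THZ1, 72.9, 54.3, 63.4 and 48.6 in TAC-Veh, and 73.2, 89.1, 76.5 and 77.2 in TAC-THZ1. Its levels were low, and reads of a near-identical copy may be counted in it.

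Smaller sets of members had other roles, grouped after the values had been seen. The p24 cargo receptors Tmed1 and Tmed4 and the ubiquitin ligase Rnf5 of the endoplasmic reticulum were 15.9, 17.8 and 18.2% above the next-highest group. In the neddylation pathway, the conjugating enzyme Ube2m was 19.7% above it and the signalosome subunit Cops6 20.3% above it. The translation factor Denr was 21.2% above the next-highest group, and the nucleoside diphosphate kinase Nme3 36.7% above it, although Nme3 overlaps Mrps34 on the same strand by 1003 bases. Other members named for their excess were 5133401N09Rik, Pigp, which acts in the synthesis of GPI anchors, Tmem126a, an assembly factor of complex I, and Ogfod2, at 31.3, 28.1, 24.7 and 24.5% above the next-highest group. Those named for their gap were Hint3, Fam165b and Rnf5, whose lowest TAC-THZ1 library was 1.09, 1.09 and 1.08 times the highest other one. Phpt1, a phosphohistidine phosphatase, and B230208H17Rik lie 7794 bases apart on chromosome 2 and were 20.1 and 10.8% above the next-highest group. The largest proportion belonged to Bex1, at 78.1%, but its means were low, at 49.5 normalized counts in TAC-THZ1 and 27.8 in TAC-Veh, and at 17.7 and 22.1 with vehicle and THZ1 in sham. The members just inside the threshold were Qdpr, Sdhaf2, Aarsd1, Spr and Sdr39u1. Those just outside were Pop5, Rhd, Eif1b, Alox12 and Nt5c3, and Pop5 missed it with a lowest TAC-THZ1 value of 316.99 against 317.02 in TAC-Veh 3.

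Pressure overload under vehicle was compared with TAC-Veh against Sham-Veh. The difference held no TAC-THZ1 values, but its SE and p-value used a spread estimated over all 16 libraries, TAC-THZ1 included. The choice of members also limits how far TAC-Veh can rise, since every TAC-Veh library had to stay below TAC-THZ1. By limma over all tested genes, 4 members (3.81%) were higher at an adjusted p under 0.05, where the background was 21.4% of tested genes. Another 16 (15.2%) were lower, against a background of 23.6%. With the values as deposited and all 16 libraries, both shares were below the background, and that of the falling members was above it after adjustment for transcript length. When the 2 groups were fitted alone, 1 member (0.952%) was higher and 2 (1.9%) were lower, against 17.2 and 18.3% of tested genes. The median difference was -0.03 on the log2 scale for the members and -0.003 for all tested genes, and 68 members (64.8%) were below 0, against 50.4% of all.

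The largest fall was that of Il10rb, at -0.45 (SE 0.08, adjusted p = 2.87e-04 by limma), with all 4 TAC-Veh libraries below all 4 Sham-Veh libraries. Il10rb shares 13288 bases of its span with Ifnar2 on the same strand, so reads in the shared part are uncertain. They are also uncertain for Naa10, which shares 4998 bases with Arhgap4, and Galt, which shares 3468 bases with Il11ra1. Among other members, Sssca1, Denr and Phpt1 share 1566, 1415 and 1416 bases with Fam89b, Ccdc62 and Mamdc4 on the same strand. Pts fell by 0.36 (SE 0.09, adjusted p = 0.00264 by limma), also without overlap between the groups. Among mitochondrial members, Hsd17b10, a dehydrogenase of isoleucine breakdown and a subunit of mitochondrial RNase P, had a difference of -0.31 (SE 0.11, limma adjusted p = 0.0277). Oxa1l and Chchd10 fell by 0.25 and 0.23 (limma adjusted p = 0.0136 and 0.0265). Doc2g and Tmem38a fell by 0.32 and 0.23 (limma adjusted p = 0.0260 and 0.0288), while Myl2 did not pass the test at -0.40 (SE 0.16, limma adjusted p = 0.0545). The others that fell were Phpt1, BC004004, Myadml2, Naa10, Galt, Cog8, Sdr39u1, Qdpr and Mkks, at -0.34 to -0.18. Of 29 alternatives, Myadml2 lost its call under 20, Galt under 17 and Mkks under 16, and when the 2 groups were fitted alone Il10rb and Pts were the only members that fell. The 4 that rose were Gm5239, Emcn, Aimp2 and Aup1, at 0.57, 0.21, 0.20 and 0.16. Timm23, which had the widest gap in TAC-THZ1, had a difference of -0.002 (SE 0.08, limma adjusted p = 0.989).

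The number that fell depended on single libraries. Without TAC-Veh 3 it was 26 (24.8% of members, against 23.8% of tested genes), and without TAC-Veh 2 or Sham-Veh 3 it was 6 (5.71%, against 20.6 and 20.7%). After removal of the trend with length by the curve, 2 members rose (1.90%, against 21.9% of tested genes) and 40 fell (38.1%, against 22.5%). In bins, 2 rose (1.90%, against 21.7%) and 41 fell (39.0%, against 22.5%). With all 16 libraries, the share of falling members was below that of all tested genes before the length adjustment and above it afterwards. Every TAC-Veh library of a member had to stay below its TAC-THZ1 libraries as deposited, so these shares depend in part on the choice. Without TAC-Veh 3 the share before the adjustment was close to that of all tested genes, at 24.8 against 23.8%.

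**Figure D4:**
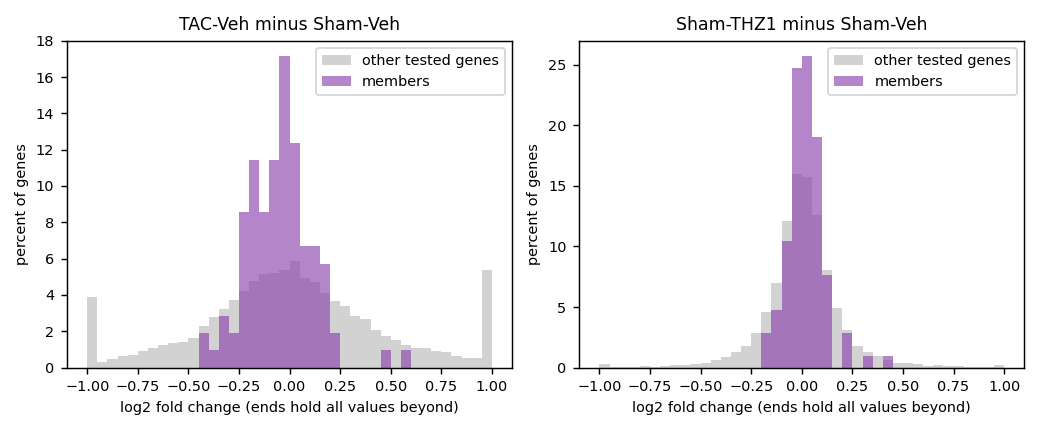
Distribution of log2 fold changes for the 105 members (purple) and the other tested genes (grey), as a percent of each, for TAC-Veh minus Sham-Veh on the left and Sham-THZ1 minus Sham-Veh on the right. Members spread from -0.45 to 0.57 on the left and from -0.19 to 0.44 on the right.

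THZ1 without pressure overload was compared with Sham-THZ1 against Sham-Veh. The choice of members limits how far Sham-THZ1 can rise here too, since every Sham-THZ1 library had to stay below TAC-THZ1. No member was called higher, against a background of 0.0225% of tested genes, and none was called lower, against 0.0450%. On the recovered reads, edgeR and DESeq2 also called 0 members. At an unadjusted p under 0.05 by limma, 2 of the 105 members were higher and 0 lower, against 448 and 469 of the 13331 tested genes. The 2 were Gm5239 at 0.44 (SE 0.16) and Sssca1 at 0.20 (SE 0.08), with limma adjusted p = 0.650 and 0.670. The members' median was 0.02 on the log2 scale, against 0.003 for all tested genes. The low background shows that few genes of any kind passed in this contrast.

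Markers of erythroid cells, neutrophils and platelets reached their highest levels in TAC-THZ1 libraries, with ranges that overlapped those of TAC-Veh. Markers of lymphoid cells did not. The summed level of 8 erythroid markers was 7130 to 31332 normalized counts in TAC-THZ1 libraries, against 6423 to 7005 in Sham-Veh, 5694 to 10205 in Sham-THZ1 and 7770 to 13467 in TAC-Veh. That of 12 neutrophil markers was 285 to 9120 in TAC-THZ1, against 87.0 to 133, 145 to 653 and 165 to 747 in the same groups. B cell and plasma cell markers summed to 165 to 243 in TAC-THZ1, against 299 to 427 in TAC-Veh. T and NK cell markers summed to 45.8 to 72.4 in TAC-THZ1, against 42.3 to 85.2 in TAC-Veh. All 7 tested erythroid, 6 tested neutrophil and 5 tested platelet markers had their highest mean in TAC-THZ1, against 22.9% of all tested genes. None of these erythroid, neutrophil and platelet markers had the members' pattern, even before genes were set aside by symbol. Ly6g stayed below the minimum count, at 1.27 to 9.83 in TAC-THZ1 and 0 in every other library. The part of blood cells in the members' levels was not tested.

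Promoter windows matched 82 of the 105 members by symbol. GC boxes (GGGCGG, both strands) were in 62.2% of them, against 63.8% of 9468 windows of tested genes and 35.9% of all 27025 windows. CCAAT was in 43.9%, against 38.6% of tested genes. AGGTCA was in 20.7%, against 12.0% of tested genes and 16% of all windows. AGAACA, an element of the glucocorticoid receptor, was in 20.7%, against 12.1% of tested genes and 19% of all windows. With tested genes as the comparison, the E-box CACGTG was in 9.76%, against 10.3%, TATAAA in 7.32%, against 7.15%, and the xenobiotic element TNGCGTG in 4.88%, against 8.05%. TGACTCA was in 4.88%, against 3.54%, TGACGTCA in 2.44%, against 3.19%, and TTATGTAA in 0%, against 0.465%. These shares are descriptions of letters in the windows.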

How the data were processed

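RNA libraries of 16 mouse ventricles were analysed. The authors aligned single-end reads to mm9 with TopHat 2.1.1, counted them per GENCODE gene with htseq-count in reverse-stranded mode, and divided each library by a DESeq2 size factor estimated over all mouse libraries together. The deposited values are this signal, a normalized count per gene and library. Dividing each library by its smallest step gave whole reads for 100% of values (tolerance 0.02), with 21.4 to 35.8 M (mega) reads a library.

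Tested genes reached 10 normalized counts in 4 or more libraries. TAC-Veh and Sham-THZ1 were each compared with Sham-Veh by limma 3.58.1 (R 4.3.3) on log2(normalized count + 1), with 4 group means, no covariates and a variance trend. P-values were adjusted by the Benjamini-Hochberg method over 13331 genes. edgeR 4.0.16 (quasi-likelihood) and DESeq2 1.42.0 were run on the recovered reads as alternatives. Groups and replicates followed the labels' titles, and p-values measure the spread between these libraries.

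The members and gene lists were chosen with earlier results of these data known. Genes were named for the largest TAC-THZ1 excess, the widest gap, the highest level, the largest differences with TAC, membership of a list, nearness to the threshold, or a neighbouring member within 50000 bases. Not every gene so named is described. Positions are from GENCODE on NCBIM37 (mm9), and transcript length is that of the longest annotated coding transcript. The 2 length adjustments were added once values were known.

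The fits and the length adjustments were tested on simulated data with known changes. The test of the length adjustments was revised to differences between libraries after counts from the adjustment in bins were known, and both adjustments are therefore given.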

Additional observations from a re-analysis of the deposited data

Results flagged for a closer look

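Among 120 groups of 4 libraries from the 30 members examined library by library, 3 had a library far from the other 3, and chance flags about 1 in 20 such groups. Grpel1 in Sham-THZ1 2 was 2296 normalized counts, with the others at 2173 to 2185. Doc2g in TAC-Veh 2 was 2736, with the others at 4158 to 4329. Naa10 in Sham-Veh 4 was 594, with the others at 578 to 580.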

How the results depend on the processing

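The count of 105 members was 101 to 113 with no minimum count, a minimum of 50, TMM scaling or upper quartile scaling, and 102 to 105, 101 and 85 of the members were shared in these settings. It was 20 in CPM and 0 when the lowest TAC-THZ1 library had to be 1.2 times the highest other one. The length curve gave 58 and the length bins 54, alternatives added once values were known. Without 1 library the count was 107 to 239, which can only grow when a library is left out, and it was 238 and 199 without TAC-Veh 1 and 3, and 165, 239 and 191 without TAC-THZ1 1, 3 and 4.

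The 4 members higher and 16 lower with TAC under vehicle became 1 and 2 when the 2 groups were fitted alone, 1 and 3 at an adjusted p under 0.01, and 0 and 0 where the log2 fold change had to reach 1 in size. Array weights gave 2 higher. The length curve gave 2 and 40, and the bins 2 and 41. Leaving out 1 library gave 1 to 6 higher (1 without Sham-Veh 2, 2 without TAC-Veh 3) and 6 to 26 lower, with 7 without Sham-Veh 2 or 4 and 8 without TAC-Veh 4. Il10rb and Pts passed under all 29 alternatives that gave them a value at this threshold. No member changed direction among the 20 called. The causes were not tested. With the replicate number as a block the counts were 4 and 16, but the numbers do not pair the libraries: 2 of 24 same-numbered pairs correlated above 0.1 (range -0.43 to 0.16). For THZ1 in sham the counts were 0 and 0 under every alternative run.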
